A study of Mus musculus with 29 samples.

Results

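The neutrophil genes S100a8, S100a9, Csf3r, Mmp8, Mmp9, Retnlg, Il1r2, Ly6g, Camp and Ngp were followed in RNA of whole mouse lung. Every array probe whose RefSeq accession belongs to 1 of these 10 genes was taken. This gave 11 probes of 9 genes, out of 41174 probes in all. Ly6g was matched by no probe and is not analysed here. All 11 probes were well above background on all 29 arrays, so all 9 genes were tested among 15346 genes. Il1r2 and Mmp9 had 2 probes each. C57BL/6 mice of 6 to 8 weeks, wild type or Klf15-/-, received the glucocorticoid drug dexamethasone (2.5 mg/kg) or its saline vehicle. Klf15 is a Krüppel-like transcription factor that glucocorticoids induce. Lungs were analysed at 4 h or 8 h. At 4 h there were 4 wild-type saline, 4 wild-type dexamethasone, 3 knockout saline and 4 knockout dexamethasone arrays. At 8 h there were 3, 3, 4 and 4 arrays in the same order. The labels call the samples biological replicates. Values are log2 signals relative to the 75th percentile of the same array, so they can be set against each other between arrays for 1 gene, but not between genes.

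Neutrophils are short-lived granulocytes that are made in the bone marrow and held in large numbers in the small vessels of the lung. Their granules are filled in sequence during maturation, primary granules first, then secondary and tertiary ones. The transcripts of many, but not all, granule proteins are mostly lost before the cell leaves the marrow. Glucocorticoids are known to raise neutrophil counts in blood by releasing cells from the marrow and from vessel walls, and to prolong neutrophil life. In whole lung, fewer neutrophils and less RNA per neutrophil cannot be told apart.

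Several arrays stood apart in these genes. Wild-type saline 4 h replicate 34 had the highest of the 29 values in 7 of the 9 genes, and Il1r2 and Mmp8 peaked on wild-type dexamethasone 4 h replicate 51. Knockout saline 4 h replicate 41 had the lowest value of 3 genes, Camp, Ngp and Mmp8. Within their groups, wild-type dexamethasone 4 h replicate 49 and knockout saline 8 h replicate 47 were low in S100a8 and S100a9. Klf15 itself separated the genotypes, at 2.05 to 4.37 on the 14 wild-type arrays and at -0.82 to 1.45 on the 15 knockout arrays. The mean log2 ratio of a bright to a dim probe of the same gene, over 2543 genes and centred on its mean, was -0.37 to -0.12 on the 7 knockout saline arrays and -0.08 to 0.29 on the other 22. The part of that shift in the knockout and genotype comparisons of these genes was not tested.

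Dexamethasone moved the neutrophil genes in opposite directions. Il1r2 and Mmp8 rose at 4 h in both genotypes, Csf3r fell at 8 h in both, Mmp9 fell in wild type at 4 h and in knockout at 8 h, and S100a8, S100a9, Retnlg, Camp and Ngp passed the test in no comparison. A gene is called here when its adjusted p is under 0.05 over all genes tested. In wild type at 4 h, 2 of 9 genes were called higher and 1 lower, against 14.3% and 22.4% of all genes tested (36.7% in either direction). At 8 h, wild type had 0 of 9 that were higher and 1 that was lower, against 9.31% and 14.3% (23.6%). In knockout at 4 h, 2 were higher and 0 lower, against 25.0% and 17.6% (42.7%). In knockout at 8 h, 2 were higher and 2 lower, against 25.8% and 17.2% (43%). These counts are near or under the share of all genes and show nothing particular to the 9 genes as a set, so single genes are described below. Whether groups overlap is stated there as description, and the share of all genes without overlap was not counted. Their median log2 difference was -0.23, -1.14, 0.98 and -0.34 in that order, against -0.03, -0.06, 0.05 and 0.11 over all genes tested. Single arrays moved these medians. At 4 h in wild type the median was 0.33 without saline replicate 34, 0.46 without dexamethasone replicate 49 and -0.69 without saline replicate 35. Leaving out each array in turn gave -1.73 to -0.63 in wild type at 8 h (lowest without dexamethasone replicate 56, highest without replicate 55), 0.52 to 1.41 in knockout at 4 h (lowest without saline replicate 41) and -0.72 to 0.04 in knockout at 8 h (lowest without saline replicate 47, highest without dexamethasone replicate 63).

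**Figure D1:**
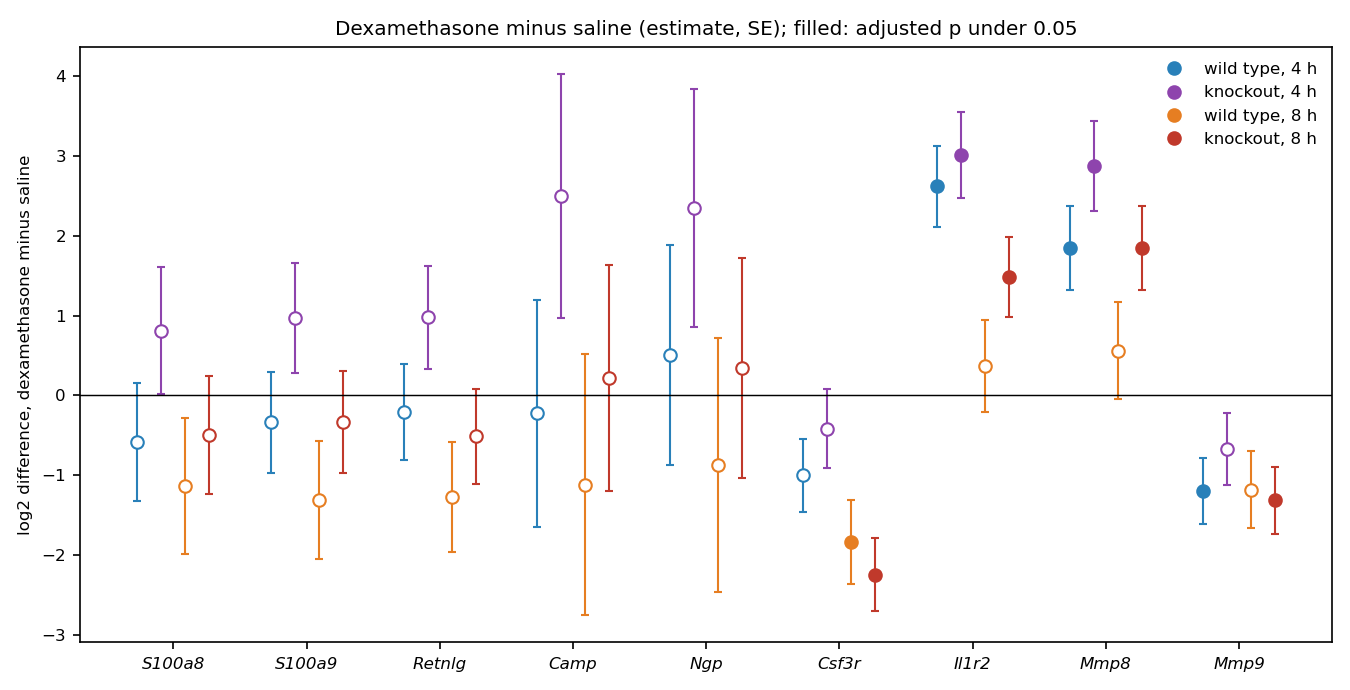
Log2 difference between dexamethasone and saline (y axis) with its SE for the 9 neutrophil genes (x axis) in wild type and knockout at 4 and 8 h. Filled points have an adjusted p under 0.05. Il1r2 and Mmp8 lie above 0 in all 4 comparisons, Csf3r and Mmp9 below 0, and the SE of Camp and Ngp is the widest.

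The upstream sequences of 5 of these genes are shown because Il1r2 and Mmp8 rose together, Csf3r moved the other way, and Camp and Ngp varied as a pair. Each is the 250 bases before the annotated start, 5′ to 3′ in the direction of the gene, from RefSeq on GRCm38.p6. Capitals mark matches on either strand to TTGCNNAA, a core of C/EBP sites, GAGGAA, a core of PU.1 sites, and CACCC, the box that Krüppel-like factors bind.
Il1r2, chr1:40085843-40086092, plus strand: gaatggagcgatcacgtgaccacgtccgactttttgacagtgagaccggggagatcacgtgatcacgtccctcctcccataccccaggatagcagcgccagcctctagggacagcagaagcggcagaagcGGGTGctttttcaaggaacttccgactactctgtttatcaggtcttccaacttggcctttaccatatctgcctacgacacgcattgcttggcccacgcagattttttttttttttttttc
Mmp8, chr9:7558179-7558428, plus strand: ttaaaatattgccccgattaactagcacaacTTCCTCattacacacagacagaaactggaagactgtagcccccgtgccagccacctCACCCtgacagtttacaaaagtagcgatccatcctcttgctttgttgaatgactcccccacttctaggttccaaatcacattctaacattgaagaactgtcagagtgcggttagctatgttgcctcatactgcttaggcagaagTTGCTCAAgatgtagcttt
Csf3r, chr4:126024409-126024658, plus strand: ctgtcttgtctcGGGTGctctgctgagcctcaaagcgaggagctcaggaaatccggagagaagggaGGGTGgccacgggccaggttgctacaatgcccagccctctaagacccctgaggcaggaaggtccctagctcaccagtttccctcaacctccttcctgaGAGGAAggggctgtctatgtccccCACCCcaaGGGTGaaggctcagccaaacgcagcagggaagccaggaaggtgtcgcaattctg
Camp, chr9:109849457-109849706, minus strand: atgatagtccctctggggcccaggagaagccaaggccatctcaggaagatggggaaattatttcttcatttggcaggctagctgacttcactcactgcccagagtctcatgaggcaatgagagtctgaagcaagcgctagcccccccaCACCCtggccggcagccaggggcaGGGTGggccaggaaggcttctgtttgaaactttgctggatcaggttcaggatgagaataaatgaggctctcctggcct
Ngp, chr9:110419558-110419807, plus strand: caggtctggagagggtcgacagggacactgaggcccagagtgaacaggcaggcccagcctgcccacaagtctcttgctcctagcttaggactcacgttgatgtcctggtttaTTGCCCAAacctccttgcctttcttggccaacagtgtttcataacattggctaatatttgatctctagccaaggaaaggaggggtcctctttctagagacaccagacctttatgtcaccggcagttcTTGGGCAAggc
Among the members, 9 had a window in the table, Ly6g included, and Mmp9 had none. TTGCNNAA was found in 5 of the 9 windows (S100a9, Mmp8, Ngp, Ly6g and Retnlg) and in 9.56% of 32851 windows of the same length. GAGGAA was in 4 of 9 (S100a8, Csf3r, Mmp8 and Ly6g) and in 23.3% of all windows. CACCC was in 6 of 9, with 4 matches in Csf3r, and in 52% of all windows. AGAACA, a core of glucocorticoid receptor sites, was in 0 of 9 and in 16.1% of all windows. These matches are letters in a short window and were compared with no binding data. The 3 marked motifs shared no base in the windows shown.

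Il1r2, the decoy receptor that binds interleukin-1 without signalling, showed the largest rise of the 9 genes at 4 h. At 4 h in wild type, its values were -3.77, -0.74, -3.80 and -2.88 under saline and -1.32, 0.48, 0.60 and -0.48 under dexamethasone. The ranges touched only through saline replicate 34, whose value lay above that of dexamethasone replicate 49. The log2 difference was 2.62 (SE 0.50, 6.14-fold, adjusted p = 0.000213, limma). In knockout at 4 h, Il1r2 was at -3.75, -3.28 and -3.44 under saline and at -1.29, -0.39, 0.13 and -0.38 under dexamethasone. These groups did not overlap, and the difference was 3.01 (SE 0.54, 8.06-fold, adjusted p = 9.61e-05). At 8 h the wild-type values were -3.44, -3.05 and -3.45 under saline and -3.07, -3.19 and -2.58 under dexamethasone, which overlap, with a difference of 0.37 (SE 0.58, adjusted p = 0.716). The knockout at 8 h gave -2.90, -3.18, -3.76 and -3.14 under saline and -1.84, -1.45, -2.49 and -1.25 under dexamethasone. Every dexamethasone array lay above every saline array there, and the difference was 1.49 (SE 0.50, 2.80-fold, adjusted p = 0.0199). That call was lost without saline replicate 47 (1.31, adjusted p = 0.0624), dexamethasone replicate 62 (1.38, adjusted p = 0.0513) or dexamethasone replicate 64 (1.32, adjusted p = 0.0605), over a range of 8.19e-06 to 0.0624 across all alternatives. The second, dimmer Il1r2 probe gave 2.69, 2.90, 0.44 and 1.54 for wild type and knockout at 4 h and wild type and knockout at 8 h.

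Mmp8, the collagenase of neutrophil secondary granules, followed Il1r2. At 4 h in wild type, Mmp8 was at -1.93, 0.74, -2.43 and -0.99 under saline and at -0.59, 1.04, 1.48 and 0.82 under dexamethasone. Again saline replicate 34 lay among the dexamethasone arrays, and the difference was 1.84 (SE 0.53, 3.58-fold, adjusted p = 0.00778). Without that array it was 2.47 (adjusted p = 0.000191, with 1.87e-08 to 0.0409 over all alternatives). In knockout at 4 h, Mmp8 was at -2.92, -1.42 and -2.29 under saline and at 0.04, 0.86, 1.18 and 0.58 under dexamethasone. The groups did not overlap, and the difference was 2.88 (SE 0.57, 7.34-fold). In knockout at 8 h, values of -1.68, -1.57, -2.76 and -1.67 under saline stood against 0.14, -0.04, -0.67 and 0.30 under dexamethasone, again without overlap, with a difference of 1.85 (SE 0.53, 3.60-fold, adjusted p = 0.00663). At 8 h in wild type, the saline values of -1.75, -1.08 and -2.15 overlapped those under dexamethasone, -1.43, -1.27 and -0.60, and the difference was 0.56 (SE 0.61, adjusted p = 0.572). The slides carried arrays of more than 1 group. Within the 2 slides that held both wild-type groups at 4 h, with 1 array of each, Mmp8 differed by 2.03 and 3.91 and Il1r2 by 3.37 and 4.40. Within the slide that held both knockout groups at 4 h, the differences were 3.47 and 3.57.

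Csf3r, the receptor for granulocyte colony-stimulating factor that drives neutrophil production and survival, was low at 8 h of dexamethasone. Wild-type Csf3r at 8 h was at -1.16, -0.80 and -1.09 under saline and at -2.91, -3.05 and -2.61 under dexamethasone. The groups did not overlap, and Csf3r fell by 1.84 on the log2 scale (SE 0.53, 3.58-fold, adjusted p = 0.0134). Without saline replicate 38 the difference was -1.73 and no longer passed (adjusted p = 0.0531, with 0.000736 to 0.0531 over all alternatives). In knockout at 8 h, Csf3r was at -0.38, -0.73, -1.10 and -0.59 under saline and at -3.07, -2.61, -3.56 and -2.55 under dexamethasone. All 4 dexamethasone arrays were lower, and the fall of 2.25 (SE 0.46, 4.75-fold, adjusted p = 0.000397) held in every alternative tried. At 4 h, Csf3r was at -0.83, 2.11, -0.53 and -0.24 in wild-type saline and at -1.73, -0.43, -0.30 and -1.04 in wild-type dexamethasone. These groups overlapped, the difference was -1.0 (SE 0.46, adjusted p = 0.0938), and without saline replicate 34 it was -0.34. Without saline replicate 33 it was -1.32 and passed (adjusted p = 0.0356). In knockout at 4 h the difference was -0.42 (SE 0.50, adjusted p = 0.543). Within slides, Csf3r differed by -1.52 in wild type at 8 h on 1 slide and by -2.17 and -2.82 in knockout at 8 h on 2 slides. At 4 h the within-slide differences were -0.19 and 0.22 in wild type and 0.04 in knockout.

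Mmp9, the gelatinase of neutrophil tertiary granules, was called lower in 2 of the 4 comparisons. In knockout at 8 h, Mmp9 was at -1.35, -1.50, -2.18 and -1.60 under saline and at -2.77, -2.97, -3.52 and -2.64 under dexamethasone. The groups did not overlap, and the fall was 1.32 (SE 0.42, 2.49-fold, adjusted p = 0.0135). Without dexamethasone replicate 63 it was -1.13 and missed the threshold (adjusted p = 0.0502, with 0.000121 to 0.0502 over all alternatives). Wild-type Mmp9 at 4 h was at -1.94, 0.49, -1.55 and -1.51 under saline and at -3.23, -1.97, -1.78 and -2.33 under dexamethasone. The fall of 1.20 (SE 0.42, adjusted p = 0.0266) rested on single arrays. It was -0.66 without saline replicate 34 (adjusted p = 0.148), -0.90 without dexamethasone replicate 49 (adjusted p = 0.116) and -1.20 without dexamethasone replicate 52 (adjusted p = 0.0511), against 0.000709 to 0.148 over all alternatives. Wild-type Mmp9 at 8 h was at -2.07, -1.44 and -2.31 under saline and at -3.51, -3.50 and -2.35 under dexamethasone, a difference of -1.18 (SE 0.48, adjusted p = 0.0791). Without dexamethasone replicate 56, it was -1.57 (adjusted p = 0.0337), and without wild-type saline 4 h replicate 34, which enters there only through the shared spread, -1.18 (adjusted p = 0.0221). The second Mmp9 probe gave -1.54 there, with an adjusted p of 0.0473 over all probes, of which 18.6% were called. In knockout at 4 h, Mmp9 differed by -0.67 (SE 0.45, adjusted p = 0.250). Within slides, with 1 array of each group, Mmp9 differed by only -0.46 and -0.24 in wild type at 4 h. The within-slide difference was -0.05 in wild type at 8 h and -0.13 in knockout at 4 h. In knockout at 8 h it was -1.28 and -2.02.

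S100a8 and S100a9, which encode the 2 subunits of calprotectin and are among the most abundant neutrophil transcripts, varied widely inside groups. At 4 h in wild type, S100a8 was at 2.43, 5.42, 2.01 and 3.34 under saline and at 0.49, 3.45, 3.38 and 3.52 under dexamethasone. At 8 h in wild type, it was at 2.94, 3.24 and 2.55 under saline and at 1.61, 0.74 and 2.96 under dexamethasone. Saline and dexamethasone arrays overlapped at both times. The differences were -0.59 (SE 0.74, adjusted p = 0.579) at 4 h and -1.14 (SE 0.85, adjusted p = 0.377) at 8 h. In knockout, S100a8 was at 0.74, 3.1 and 2.14 under saline and 1.90, 2.63, 3.76 and 2.92 under dexamethasone at 4 h, and at 2.70, 2.88, 1.41 and 2.84 under saline and 2.02, 2.32, 0.72 and 2.77 under dexamethasone at 8 h. These groups overlapped too, with differences of 0.81 (SE 0.80, adjusted p = 0.450) and -0.50 (SE 0.74, adjusted p = 0.614). S100a9 gave -0.34, -1.31, 0.97 and -0.34 for wild type at 4 and 8 h and knockout at 4 and 8 h. Retnlg, a resistin-like protein made by neutrophils, gave -0.21, -1.28, 0.98 and -0.51. In wild type at 4 h, leaving out saline replicate 34 turned the S100a8 difference to 0.12 and the Retnlg difference to 0.33, and leaving out dexamethasone replicate 49 turned them to 0.15 and 0.46. The direction at 4 h in wild type was therefore set by single arrays, and an SE of 0.60 to 0.85 in these 2 genes leaves changes of that size unresolved.

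Camp and Ngp, the cathelicidin and the neutrophilic granule protein of secondary granules, which are transcribed in marrow precursors, spanned the widest range. Camp ran from -6.58 to 1.95 over the 29 arrays, a range of 8.52 log2 units, and Ngp from -6.17 to 1.25. At 4 h Camp was at -4.31 on wild-type saline replicate 35, at -6.58 on knockout saline replicate 41 and at -5.15 on wild-type dexamethasone replicate 49. At 8 h it was at -3.87 on knockout saline replicate 47. The other 25 arrays lay between -2.20 and 1.95, so the low values were single arrays of 4 different groups. Camp differed between dexamethasone and saline by -0.23 (SE 1.42) and -1.12 (SE 1.64) in wild type and by 2.50 (SE 1.53) and 0.21 (SE 1.42) in knockout at 4 and 8 h. Ngp differed by 0.50, -0.87, 2.35 and 0.34 in the same order. Single arrays set these values. Without knockout saline replicate 41 the knockout difference at 4 h was 0.52 for Camp and 0.59 for Ngp, and without knockout saline replicate 47 that at 8 h was -0.76 and -0.72. Without wild-type saline replicate 34 the wild-type difference at 4 h was 0.69 and 1.45. The lowest adjusted p among these 8 tests was 0.205, for Camp in knockout at 4 h.

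**Figure D2:**
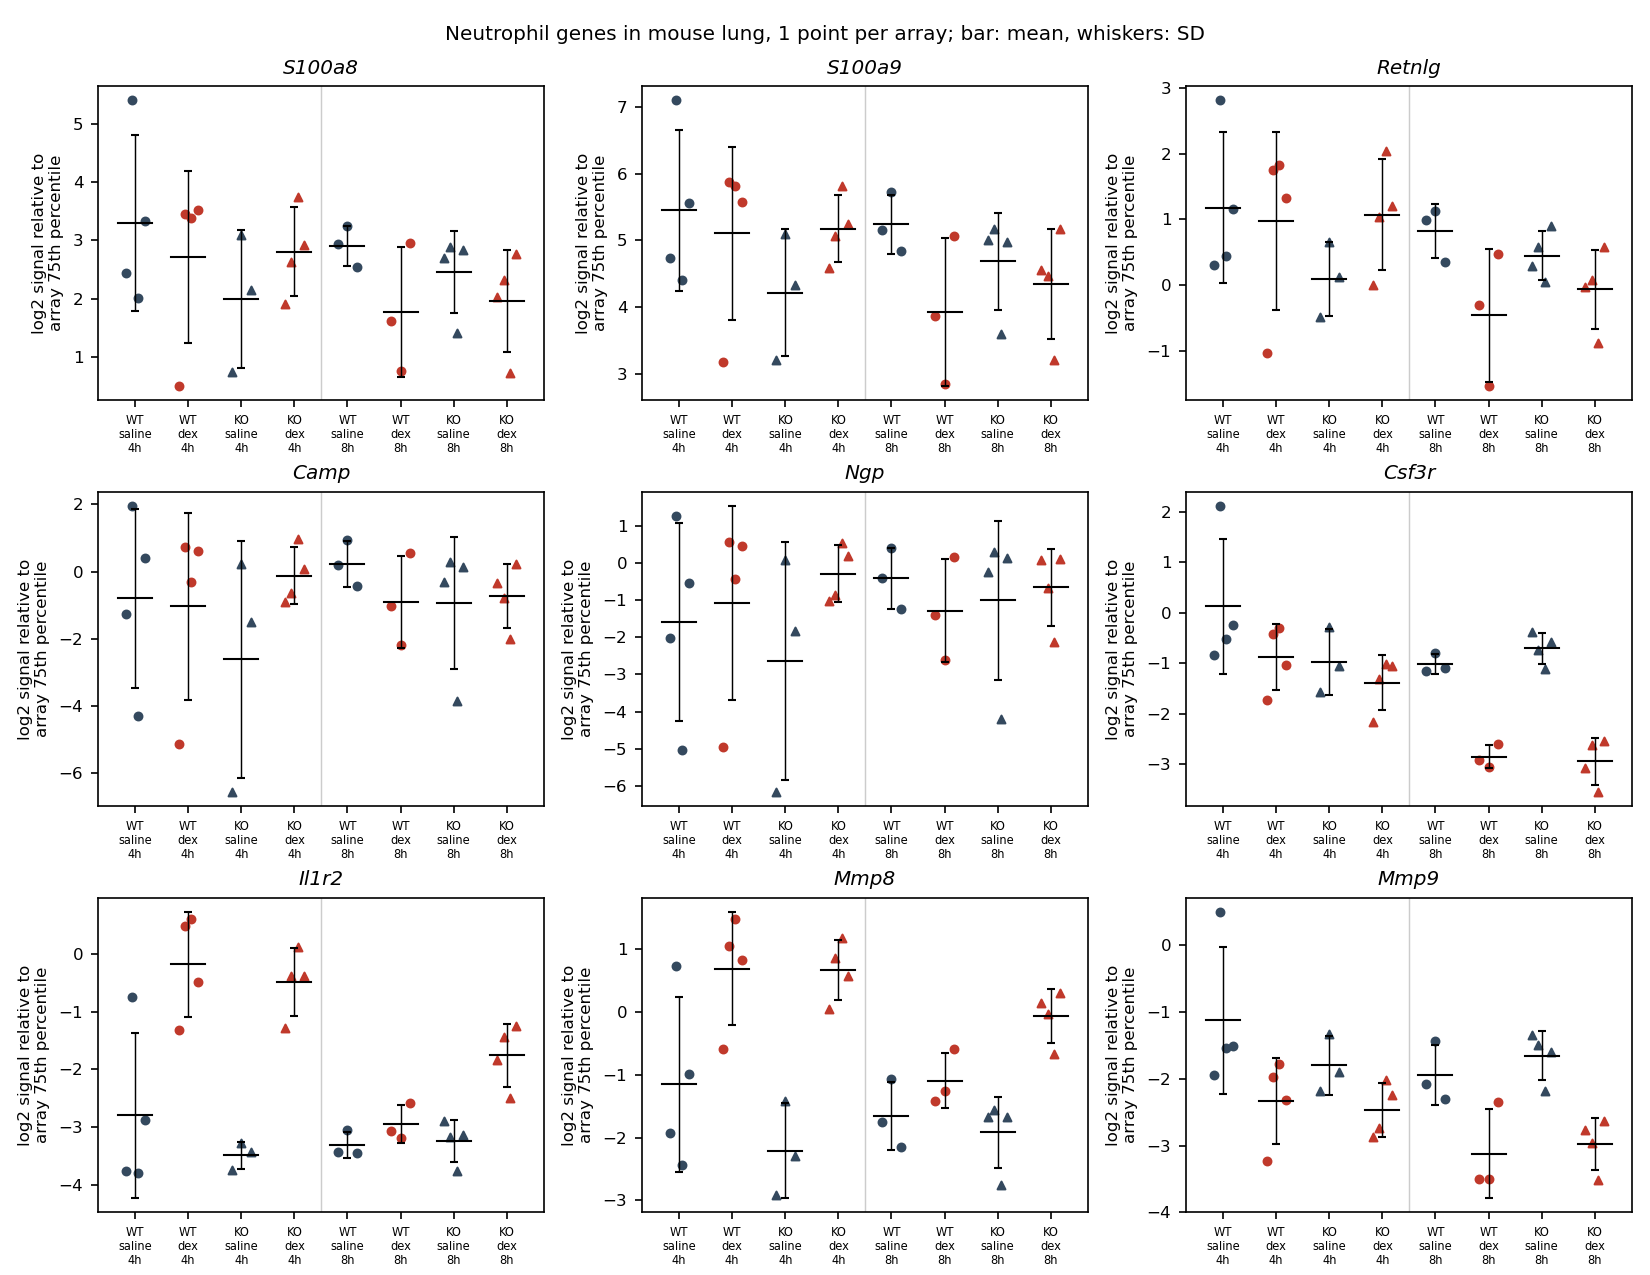
Log2 signal relative to the 75th percentile of the array (y axis) of the 9 genes on each of the 29 arrays, by group (x axis; circles wild type, triangles knockout; grey saline, red dexamethasone; bar and whiskers mean and SD). Il1r2 and Mmp8 were high under dexamethasone at 4 h, Csf3r was low under dexamethasone at 8 h, and Camp and Ngp fell far below the rest on 4 arrays.

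Inside groups the 9 genes rose and fell together. Over the deviations of the 29 arrays from their group means, Pearson's r between 2 of the genes was 0.71 to 0.995 with a median of 0.89 over the 36 pairs. S100a8 and S100a9 had r = 0.99 (Spearman's rho 0.97, r = 0.98 without the 2 arrays farthest from the median). Camp and Ngp had r = 0.995 (rho 0.99, r = 0.99 without 2 arrays), while Camp and Il1r2 had r = 0.71 (rho 0.71, r = 0.64 without 2 arrays). These correlations are a description over arrays that share RNA, slide and scaling within each array, and no p is given. The within-group SD was 2.08 log2 units for Camp and 2.02 for Ngp, 1.08 for S100a8, and 0.61 for Mmp9. For Il1r2 the SD of the 8 group means, 1.31, was above the SD within groups, 0.74, and for Csf3r it was 1.06 against 0.67. For S100a8 the order was the other way, 0.54 against 1.08.

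**Figure D3:**
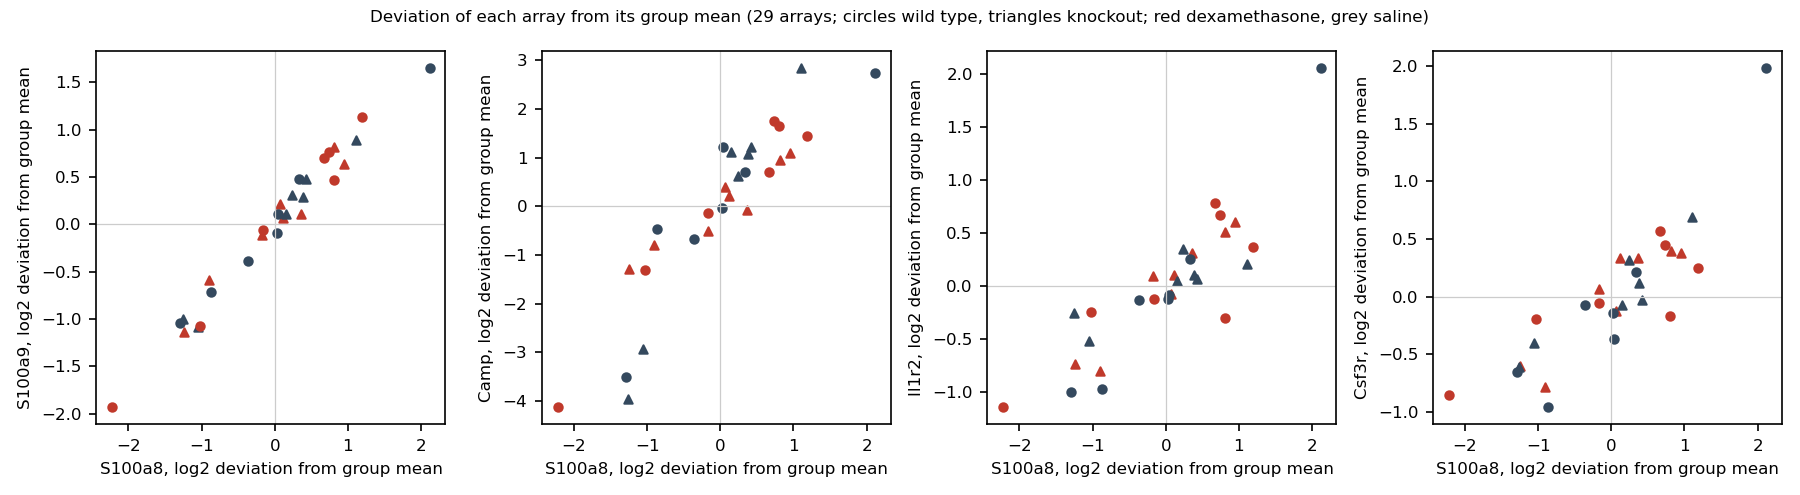
Deviation of each of the 29 arrays from its group mean in S100a8 (x axis, log2) against that in S100a9, Camp, Il1r2 and Csf3r (y axes, log2). Points run along a rising line in each panel, and Camp deviations reach further below 0 than those of S100a8.

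Because the genes moved together inside groups, their ratio to S100a8 in the same array was also taken. This was chosen after the values were seen. The ratio has no absolute meaning between probes, only its difference between groups has, and it shows unequal change and not that S100a8 stayed constant. In wild type at 4 h, the log2 ratio of Il1r2 to S100a8 was -6.10 ± 0.20 (SD, n = 4) under saline and -2.89 ± 0.90 (SD, n = 4) under dexamethasone, a difference of 3.21. At 8 h, wild-type saline arrays had a ratio of -6.22 ± 0.20 (SD, n = 3) and dexamethasone arrays one of -4.71 ± 0.80 (SD, n = 3). Knockout arrays at 8 h had -5.70 ± 0.41 (SD, n = 4) and -3.72 ± 0.35 (SD, n = 4). Saline and dexamethasone arrays did not overlap in this ratio in any of the 4 comparisons. The same held for Mmp8, with differences of 2.43, 1.70, 2.06 and 2.35 in wild type at 4 and 8 h and knockout at 4 and 8 h. The share of all genes without overlap in their ratio to S100a8 was not counted. The spread of the Mmp8 ratio among the 4 wild-type saline arrays at 4 h was 0.16 (SD), against 1.39 for Mmp8 itself. The Csf3r ratio differed by -0.41 and -0.70 in wild type, where groups overlapped, and by -1.23 and -1.75 in knockout, where they did not. The Mmp9 ratio differed by -0.61, -0.04, -1.48 and -0.82 in wild type at 4 and 8 h and knockout at 4 and 8 h, and the groups overlapped in all but knockout at 4 h. Under saline, the knockout ratio lay above the wild-type one at 8 h, by 0.77 for Csf3r and 0.73 for Mmp9, without overlap. At 4 h it lay above by 0.21 and 0.63, with overlap. The S100a8 probe is brighter than those of Csf3r and Mmp9. The part of the bright-to-dim shift of the knockout saline arrays in these ratios was not tested. The S100a9 ratio differed by no more than 0.25 in either direction.

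**Figure D4:**
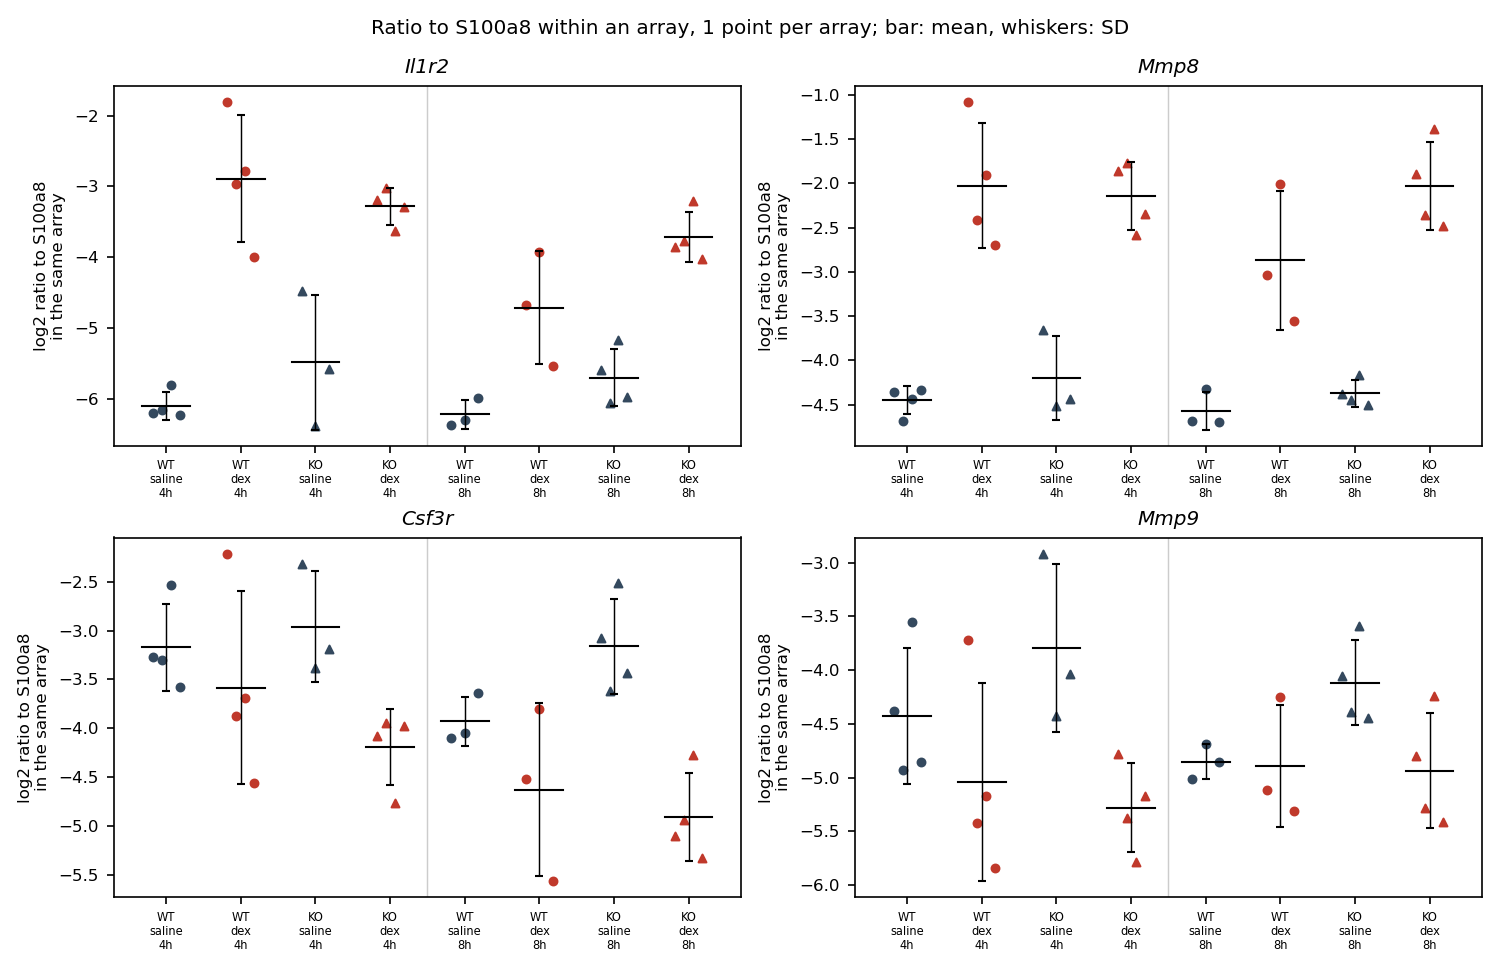
Log2 ratio of Il1r2, Mmp8, Csf3r and Mmp9 to S100a8 in the same array (y axis) by group (x axis; circles wild type, triangles knockout; grey saline, red dexamethasone; bar and whiskers mean and SD). For Il1r2 and Mmp8 every dexamethasone array lies above the saline arrays of its genotype and time.

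The fit was repeated with the S100a8 level as a covariate, an alternative also added after the values were seen, in which 8 of the genes can be tested and the covariate was itself measured after treatment. In wild type at 4 h, 5 of 8 genes were then called (36% of all genes). Mmp8 stood at 2.23 (SE 0.21), Il1r2 at 2.97 (SE 0.26), Mmp9 at -0.90 (SE 0.19), Csf3r at -0.69 (SE 0.24) and Ngp at 1.51 (SE 0.57). At 8 h, 3 of 8 were called in wild type (21.0% of all genes), and Mmp8 at 1.31 (SE 0.25, adjusted p = 0.000466) and Il1r2 at 1.04 (SE 0.30, adjusted p = 0.0159) joined Csf3r at -1.22 (SE 0.28). In knockout, 4 of 8 were called at 4 h (42.1%) and 4 of 8 at 8 h (42.4%), in each case Il1r2 and Mmp8 higher and Csf3r and Mmp9 lower. The SE of the Mmp8 difference in wild type at 4 h was 0.53 without the covariate and 0.21 with it.

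The 2 times were also compared. Under saline, 0 of 9 genes were called between 8 h and 4 h in wild type (1.27% of all genes) and 0 of 9 in knockout (1.08%) by limma, with 1 gene, Csf3r in wild type (-1.15), at an unadjusted p under 0.05. Without saline replicate 34 that value was -0.48. The share of all genes at an unadjusted p under 0.05 was not counted. Under dexamethasone in wild type, 3 of 9 were called lower at 8 h, against 6.37% of all genes. Il1r2 was lower by -2.77 (SE 0.54, adjusted p = 0.00114), Csf3r by -1.98 (SE 0.50, adjusted p = 0.00907) and Mmp8 by -1.78 (SE 0.57, adjusted p = 0.0410). Il1r2 and Csf3r did not overlap between the times. The Mmp8 ranges all but touched, with a lowest value of -0.593 at 4 h and a highest of -0.600 at 8 h. The share of all genes without overlap was not counted. The Mmp8 call was lost when any of dexamethasone replicates 50, 51, 52, 54, 55 or 56 was left out, with values of -2.03 to -1.52 and an adjusted p of 0.0511 to 0.136. Under dexamethasone in knockout, Csf3r alone was called lower (3.80% of all genes), by -1.56 (SE 0.46, adjusted p = 0.0396). It passed in 28 of 37 alternatives and was lost without replicates 58, 59, 60, 61, 63 or 64, with -1.69 to -1.36 and an adjusted p of 0.0516 to 0.132. Tested directly, the dexamethasone effect at 8 h minus that at 4 h was called for 0 of 9 genes in wild type (6.01% of all genes) and 0 of 9 in knockout (3.02%). The nearest was Il1r2 in wild type, at -2.25 (SE 0.77, adjusted p = 0.0908). It passed without wild-type saline 4 h replicate 34 (-2.94, adjusted p = 0.00275) and without wild-type dexamethasone 4 h replicate 49 (-2.63, adjusted p = 0.0383). It also passed with the S100a8 covariate (-1.93, adjusted p = 0.00329), where 1 of 8 genes was called, against 5.68% of all genes. Csf3r in knockout stood at -1.83 (SE 0.68, adjusted p = 0.188). It passed without wild-type saline 4 h replicate 34, which is in no group of that comparison and enters only through the shared spread (-1.83, adjusted p = 0.0318). With the covariate, 5 of 8 genes were called lower at 8 h under dexamethasone in wild type (10.9% of all genes in either direction), S100a9 at -0.38 and Retnlg at -0.70 among them.

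None of the 9 genes passed the threshold between the genotypes. Between knockout and wild type, 0 of 9 were called under saline at 4 h (25.0% of all genes) and 8 h (13.8%), and 0 of 9 under dexamethasone at 4 h (0.971%) and 8 h (4.95%), by limma. At an unadjusted p under 0.05 there were 1, 0, 0 and 1 genes, Csf3r under saline at 4 h (-1.10) and Il1r2 under dexamethasone at 8 h (1.19). The share of all genes at that unadjusted threshold was not counted, here or for the test of the difference below. Under saline at 4 h all 9 differences were negative, from -1.82 for Camp to -0.67 for Mmp9. Without wild-type replicate 34 the Csf3r difference there was -0.44, the S100a8 difference went from -1.31 to -0.60 and that of Il1r2 from -0.69 to -0.01, and without knockout replicate 41 Camp and Ngp turned to 0.16 and 0.71. Under dexamethasone at 8 h, Il1r2 was at -1.84, -1.45, -2.49 and -1.25 in knockout and at -3.07, -3.19 and -2.58 in wild type. These values, of the brighter probe, did not overlap between the genotypes. By the second probe they did, with knockout replicate 63 at -3.82 and wild-type replicate 56 at -3.52. The difference by the brighter probe, 1.19 (SE 0.54), had an adjusted p of 0.18. With the S100a8 covariate it was 1.08 (SE 0.27, adjusted p = 0.0259) and that of Mmp8 0.90 (SE 0.22, adjusted p = 0.0217), which made 2 of 8 genes called against 4.70% of all genes. The test of the difference itself, the dexamethasone effect in knockout minus that in wild type, called 0 of 9 at 4 h (17.0% of all genes) and 0 of 9 at 8 h (6.52%), with 0 genes at an unadjusted p under 0.05 at either time. At 8 h this difference was 1.12 (SE 0.77) for Il1r2 and 1.29 (SE 0.80) for Mmp8. The dexamethasone and genotype comparisons share groups and are not independent of each other.

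By the rule of highest correlation over the 29 arrays, the 6 genes most like the mean of the standardised 9 genes were Cxcr2, the neutrophil chemokine receptor (r = 0.88, rho 0.86, r = 0.85 without 2 arrays), Clec4d (r = 0.88), Mpo, which encodes myeloperoxidase (r = 0.87), Pram1 (r = 0.87), Fcnb (r = 0.86) and Foxd4 (r = 0.85). For S100a8 alone they were Ceacam10, Mcpt8, Ifitm6, Foxd4, Cxcr2 and Fcnb, at r = 0.84 to 0.88. On deviations from group means, the 6 nearest S100a8 were Hemgn (r = 0.95, rho 0.96, r = 0.94 without 2 arrays), Ermap (r = 0.95), Rhd (r = 0.94), Fcnb (r = 0.93), Kel (r = 0.92) and Trem3 (r = 0.92). Hemgn, Ermap, Rhd and Kel are genes of red cell precursors or red cell surface. Hemgn, whose single values were looked at after this rank was seen, ran from -7.50 to -2.03. Its 4 lowest values, -7.50, -7.07, -6.87 and -6.36, were on replicates 41, 49, 47 and 35, the 4 arrays on which Camp was lowest. The part of precursor cells of other lineages in the spread of the neutrophil genes was not tested.

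Other neutrophil genes were taken from lists, with the 10 members left out. In the order wild type at 4 h, wild type at 8 h, knockout at 4 h and knockout at 8 h, 14.3%, 9.31%, 25.0% and 25.8% of all genes were called higher and 22.4%, 14.3%, 17.6% and 17.2% lower, and the counts below are to be read against these shares. The list of primary granule genes, made in early precursors, had 6 genes tested, and only Serpinb1a was called. It encodes an inhibitor of neutrophil proteases and not a granule protease. Serpinb1a was lower in wild type at 4 h (-0.83, SE 0.14) and at 8 h (-0.49, SE 0.16). Elane, neutrophil elastase, was at 0.99 (SE 1.18) in wild type at 4 h and was not called. Of 9 secondary and tertiary granule genes, 1, 0, 2 and 3 were called higher and 0, 2, 1 and 1 lower in wild type at 4 h, wild type at 8 h, knockout at 4 h and knockout at 8 h. Lcn2, the iron-binding lipocalin, rose by 0.56 (SE 0.17) in wild type at 4 h, and Mmp25, a membrane-bound metalloproteinase, fell by 1.54 (SE 0.46) in wild type at 8 h and by 1.09 (SE 0.43) in knockout at 4 h. With 9 genes, these counts lie near those shares and show nothing particular to the list. Of 17 receptor and surface genes, 7, 6, 6 and 5 were called lower and 1, 0, 2 and 0 higher in the same order. Fpr1, a receptor for bacterial formyl peptides, fell by 1.26 (SE 0.17) in wild type at 4 h, and Cxcr4, the receptor that retains neutrophils in marrow, by 0.67 (SE 0.12). Of 6 subunits of the NADPH oxidase, which makes superoxide, 5, 5, 2 and 5 were called lower and 0 higher. Rac2 was lower in all 4 comparisons, by -1.34, -1.62, -1.10 and -1.27. Many of these genes are also expressed by monocytes, macrophages or lymphocytes.

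Next come the signals that bring neutrophils into tissue. At 4 h, 22.4% of all genes in wild type and 17.6% in knockout were called lower, and at 8 h 14.3% and 17.2%. Of 14 listed chemokines and growth factors, 10 were tested, and 9, 4, 7 and 4 were called lower and 0 higher in wild type at 4 h, wild type at 8 h, knockout at 4 h and knockout at 8 h. Cxcl3, a ligand of Cxcr2, was at -1.94 (SE 0.28) in wild type and -2.57 (SE 0.30) in knockout at 4 h. Il1b, whose product the Il1r2 receptor binds, fell by 2.20 (SE 0.72) in wild type and 2.75 (SE 0.62) in knockout at 8 h. Of 12 adhesion genes, 9, 6, 6 and 6 were called lower and 0, 0, 0 and 1 higher, among them Icam1, the endothelial ligand of neutrophil integrins, at -0.90 (SE 0.10) in wild type and -1.42 (SE 0.11) in knockout at 4 h. Of 7 transcription factors tested, 2, 0, 1 and 1 were higher and 3, 2, 3 and 2 lower. Cebpd rose by 1.10 (SE 0.17) in wild type and 1.5 (SE 0.19) in knockout at 4 h, and Spi1, which encodes PU.1, fell by 0.80 (SE 0.16) and 0.96 (SE 0.18). Of 9 glucocorticoid-raised genes without Il1r2, 7, 2, 8 and 7 rose and 1, 0, 0 and 0 fell, Tsc22d3 rising by 1.54 (SE 0.14) in wild type at 4 h. Of 16 other metalloproteinases and inhibitors, 4, 1, 2 and 4 were higher and 4, 4, 6 and 5 lower, and Mmp12, the macrophage elastase, was called lower in each comparison, at -2.70, -2.32, -3.17 and -3.59. Of 13 other S100 genes, 1, 1, 1 and 4 were higher and 4, 4, 2 and 1 lower, with medians of -0.12, -0.31, 0.07 and 0.13. S100a4 was called lower in each comparison, at -1.64, -1.47, -1.02 and -0.76, and does not stand for its list.

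**Figure D5:**
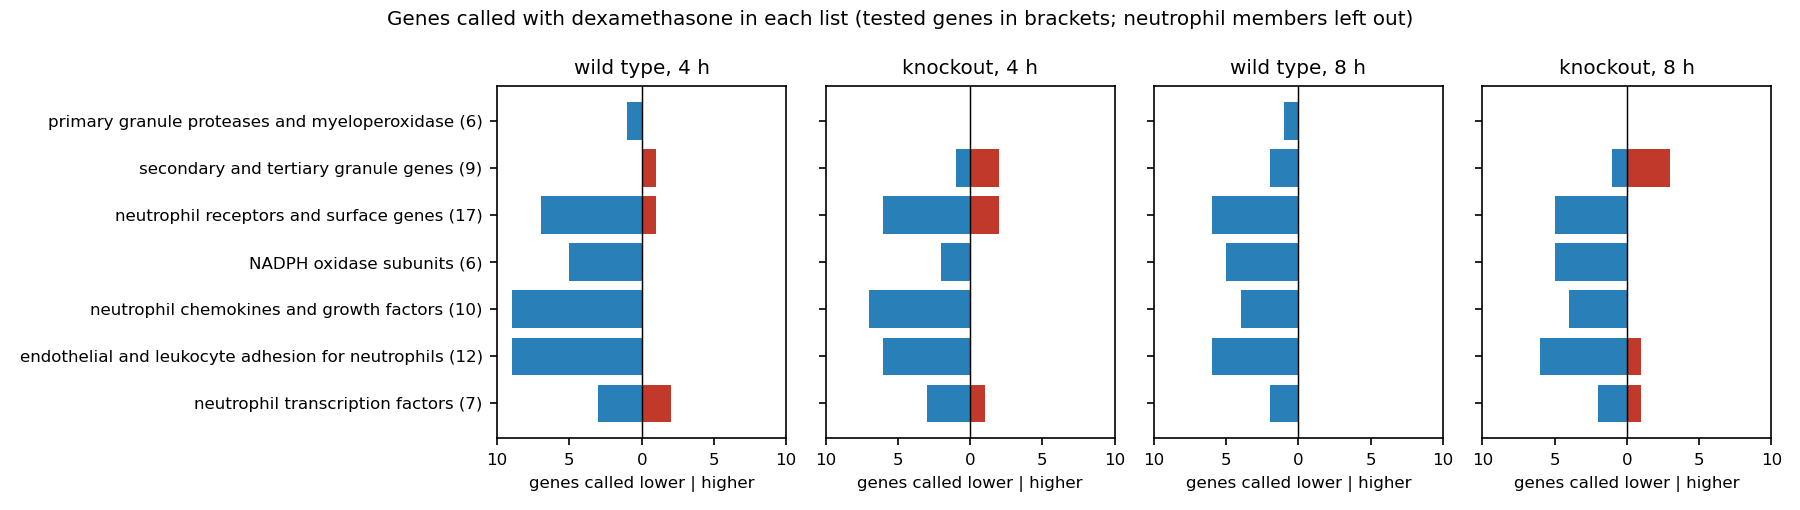
Number of genes called lower (blue, left) and higher (red, right) with dexamethasone (x axis) in 7 lists (y axis, genes tested in brackets, the 10 neutrophil members left out) for each genotype and time. Chemokine and adhesion genes were called lower far more often than higher, and primary granule genes were nearly all not called.

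Markers of other cell types were counted against the same shares of all genes, 22.4%, 14.3%, 17.6% and 17.2% lower and 14.3%, 9.31%, 25.0% and 25.8% higher. Of 8 NK cell markers, 8 were called lower in each of the 4 dexamethasone comparisons, of 8 B cell markers 7 in each, and of 9 T cell markers 6, 6, 6 and 7. The mean level of the B cell list was -1.60 to -0.60 over the saline arrays and -4.23 to -2.33 over the dexamethasone arrays. Of 11 monocyte markers, 7, 5, 6 and 6 were lower and 2, 1, 2 and 4 higher. The mean level of the monocyte list was 1.21 to 2.25 over saline and 0.05 to 0.99 over dexamethasone arrays. Of 6 erythroid markers tested of 9 listed, 0, 0, 4 and 1 were higher, with list means of -1.09 to 0.60 over saline and -0.19 to 1.36 over dexamethasone arrays. Of 7 platelet markers tested, 0, 0, 3 and 2 were higher. In wild type no erythroid or platelet marker was called. The mean level of the alveolar macrophage list was 2.10 to 2.34 over saline and 1.81 to 2.44 over dexamethasone arrays. For the eosinophil and basophil list it was -4.99 to -3.04 over saline and -5.22 to -3.51 over dexamethasone arrays. The filter on dim probes lets a marker be tested only if it was well above background in at least 1 group, which may be a saline group alone. The list of alveolar epithelial markers stood at 4.92 to 5.59 on all arrays, so the labelled tissue was present throughout. The part of these cell types in the differences of the neutrophil genes was not tested.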

How the data were processed

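Cy3-labelled lung RNA was hybridised to 29 single-colour Agilent 4x44K arrays. The intensity of each spot, as deposited, had been background-subtracted and detrended by the authors' scanner software (version 10.7.3.1 in the headers, 10.6 in the submitters' processing notes). A deposited table of log2 values, whose normalization no source used here states, served as an alternative. Processed signals were taken to log2 and set relative to the 75th percentile of their array (1553 to 3146 before logs). Outlier spots (0.101 to 0.908% per array) were dropped, and 0 spots were saturated. Probes well above background on 3 arrays of a group were kept (33931). Accessions named 24836 of 41174 probes. The brightest kept probe stood for its gene, and 432 genes lacked a value on some array. On each array 75.5 to 88.5% of probes were well above background, and arrays of a group correlated at r = 0.97154 to 0.99134. The number of arrays limits the precision.

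limma 3.58.1 (R 4.3.3) fitted 8 group means to all arrays, so all groups share 1 estimate of spread, with Benjamini-Hochberg adjustment over 15346 genes. The p-values measure the spread between these samples. With slide as a random block, the estimated correlation between arrays of the same slide was 0.41, which the main fit leaves out of account. In data simulated for wild type at 4 h, 92.6% of 68 genes changed by 2 log2 units and 69.7% of 66 changed by 1 were called. Those genes were drawn at random from all genes tested, each with its own spread. The percentages were not worked out for genes as variable as S100a8, Camp or Ngp, where changes of that size can be missed. Tables were made with Python 3.11.15.

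The 10 genes and all lists were chosen with earlier results of these data known. The text names all 10 genes, from each list it describes up to 4 genes of lowest p per comparison, and the 6 genes of highest correlation. Alternatives were quantile normalization, normexp (offset 50) with quantile normalization, no filter, the mean of a gene's probes, slide as a fixed or random block (8 slides of 2 to 4 arrays, scanned on 1 day), the deposited table, each array left out and, added after seeing the data, S100a8 as a covariate. RefSeq sequences are on GRCm38.p6 and the array design on mm9, so no probe coordinates are given.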

Additional observations from a re-analysis of the deposited data

Results flagged for a closer look

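In 45 sets of 4 arrays (9 genes in 5 groups of 4), the lowest array lay far from the others, by Dixon's criterion, in 7. Chance gives about 1 in 20 sets, and the 9 genes vary together, so the 7 are not independent. Knockout saline 8 h replicate 47 was such an array in 5 genes, with S100a8 at 1.41 (nearest 2.70), S100a9 at 3.60 (nearest 4.98), Mmp8 at -2.76 (nearest -1.68), Camp at -3.87 (nearest -0.32) and Ngp at -4.20 (nearest -0.24). Wild-type dexamethasone 4 h replicate 49 was such an array in S100a8, at 0.49 (nearest 3.38), and in S100a9, at 3.18 (nearest 5.57). With all arrays and no block or covariate, the dexamethasone effect differed past the threshold for 0 of the 9 genes between the genotypes or between the times. The alternatives under which the difference between the times passed for Il1r2 in wild type and for Csf3r in knockout are given with the comparison of the times.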

How the results depend on the processing

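None of the values of the 9 genes reversed a call. With the S100a8 covariate, 5 of 8 genes were called in wild type at 4 h, 3 in wild type at 8 h, 4 in knockout at 4 h, 2 between genotypes under dexamethasone at 8 h, 1 for the effect at 8 h minus 4 h in wild type and 5 for 8 h against 4 h under dexamethasone in wild type. With slide as a random block, 1 gene, Il1r2, was called for the effect at 8 h minus 4 h in wild type (-2.33, adjusted p = 0.0448). For 8 h against 4 h under dexamethasone in knockout, normexp with quantile normalization, slide as a fixed block and the deposited table each called 0 genes (Csf3r at -1.21, -1.49 and -1.42). Slide as a fixed block also ended the calls of Mmp9 in wild type at 4 h (-1.04, adjusted p = 0.0821) and of Mmp8 between times in wild type under dexamethasone (-1.92, adjusted p = 0.0744). Leaving out 1 array at a time gave 2 to 4 called genes in wild type at 4 h, 0 to 2 in wild type at 8 h, 2 in knockout at 4 h and 3 to 4 in knockout at 8 h. It gave 0 to 1 for the effect at 8 h minus 4 h in either genotype, 2 to 4 for 8 h against 4 h under dexamethasone in wild type, 0 to 2 in knockout, and 0 in the other 8 comparisons. No share of all genes stands beside the counts with 1 array left out, with a slide block, with normexp or with the deposited table. Those counts show only how the calls of the 9 genes moved. The cause of these changes was not tested. Arrays could not be paired by replicate number, because the groups share no replicate numbers. Slides, which hold arrays of several groups, were used as a block and for differences within a slide.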
